A study of Mus musculus with 8 samples.

Results

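The genes of the integrated stress response that are tied to the transcription factor ATF4 were followed across mouse pluripotent, neural and fused cells. They were chosen by name as Atf3, Atf4, Atf5, Ddit3, Ddit4, Trib3, Chac1, Asns, Nupr1 and Sesn3, and all 10 were found among the 24354 gene symbols of the expression table. All 10 passed the filter on low values, a mean of at least 1 FPKM in at least 1 group. FPKM counts sequenced fragments relative to transcript length and to the number of fragments mapped, so that levels of different genes can be set side by side. The study fused extended pluripotent stem cells (EPSCs) with neural stem cells (NSCs), and asked whether the fused cells take on the expression pattern of the EPSCs. Poly-A RNA of 4 groups was sequenced, with 2 libraries in each group and 8 in all.

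The ESC group was the E14 embryonic stem cell line, labelled wild type (wt) like the EPSCs, and was grown in medium with serum and LIF on feeder cells, inactivated fibroblasts of mouse embryos. EPSCs had been derived from C57BL/6 eight-cell embryos and the labels name them EPSC_1-p15. They were kept on inactivated embryonic fibroblasts of C3H mice in LCDM medium, a serum-free N2B27 base with human LIF and the small molecules CHIR99021, dimethindene maleate and minocycline hydrochloride. NSCs (OG2/ROSA26) were heterozygous for 2 transgenes, a GFP under the distal enhancer of Oct4 and a ubiquitous lacZ, and were grown in N2 medium with EGF and FGF2 on gelatin without feeder cells. Hybrid cells came from polyethylene glycol fusion of EPSCs with these NSCs, were established as lines from selected Oct4-GFP+ single cells, are labelled tetraploid, carry the name EPNSC_2-2-p10 and were kept in LCDM medium on C3H feeder cells. Both libraries of a group carry the same line name, so the spread given here is that between 2 libraries and may be technical. The labels give passage 15 for EPSCs and passage 10 for hybrid cells. Line, passage, medium, feeder cells, strain and ploidy differ between the groups in several combinations and cannot be told apart.

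The integrated stress response is set off when 1 of several kinases phosphorylates the translation factor eIF2 on its alpha subunit. Most protein synthesis is then lowered, while the ATF4 messenger is translated more because of short upstream reading frames in its leader. ATF4 switches on genes for amino acid supply and redox balance and, under prolonged stress, genes linked to cell death, often together with partners of the bZIP and C/EBP families. Since much of this control acts on translation and protein stability, a transcript level is not a measure of ATF4 protein.

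ATF4 and its C/EBP partners bind a composite element whose core is written TGATGNAA. All 10 genes had at least 1 RefSeq promoter window in the GRCm38.p6 build, from 250 bases before to 50 bases after the annotated start, and Atf5 had 2, which made 11 windows. The core, read on both strands (TTNCATCA on the reverse strand), lay in windows of 5 of the 10 genes, Asns, Atf3, Chac1, Nupr1 and Trib3, and in 3.97% of all 32851 windows. The variant TGATGCAA, whose matches are among those of the core, lay in Atf3, Chac1 and Nupr1 and in 0.895% of all windows. The CRE palindrome TGACGTCA, which no match of the core can equal, was in none of the windows of the 10 genes and in 1.79% of all windows, and the C/EBP motif TTGCGNAA, also distinct from the core, was in none of them and in 0.798% of all windows. The windows that hold a match are shown in part because these 5 genes were all lower in hybrid cells than in EPSCs, as were 4 of the 5 genes without a match. Each is printed on the strand of the gene, 5′ to 3′, with the match in capitals.
Atf3 (chr1:191183390-191183489, strand -): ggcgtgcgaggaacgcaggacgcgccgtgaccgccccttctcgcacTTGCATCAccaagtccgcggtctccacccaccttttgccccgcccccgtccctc
Chac1 (chr2:119351003-119351102, strand +): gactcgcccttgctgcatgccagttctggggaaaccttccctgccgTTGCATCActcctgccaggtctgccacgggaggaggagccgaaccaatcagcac
Nupr1 (chr7:126625527-126625626, strand -): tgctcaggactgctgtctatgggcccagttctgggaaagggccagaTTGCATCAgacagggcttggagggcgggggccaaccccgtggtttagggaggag
Trib3 (chr2:152344029-152344056, strand -): tagctcaggtTTACATCAgccgggcggg
Asns (chr6:7693210-7693309, strand -): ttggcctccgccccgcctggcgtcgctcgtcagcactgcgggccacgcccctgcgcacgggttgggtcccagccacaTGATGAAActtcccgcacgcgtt
The match lay 110 to 103 bases before the start in both Atf3 and Nupr1, 193 to 186 bases before it in Chac1 and 23 to 16 bases before it in Asns. In Trib3 it covered bases 15 to 22 after the start, in the transcribed part of the gene. These are matches of letters in a window and not measured binding sites.

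Depth was worked out from the step size of low FPKM values and came to 21.9 to 32.6 per library, counted in units of 1000000 read pairs. At this depth 3 fragments on a 2 kb transcript are worth 0.046 to 0.0685 FPKM, and every value given here for the 10 genes lies above that. Marker genes followed the labels: the summed level of 8 pluripotency markers was 4686 to 5633 FPKM in ESCs, EPSCs and hybrid cells and 0.519 to 0.55 FPKM in NSCs, where Pou5f1, Zfp42, Tdgf1, Dppa5a, Utf1 and Fgf4 were listed at 0. The sum of 8 neural stem cell markers was 3772 to 3815 FPKM in NSCs and 12.9 to 20.4 FPKM in the other groups. Fibroblast markers, 8 genes expressed by feeder cells, differed between the groups grown on them. Their sums were 11 to 12.2 FPKM in ESCs, 80.3 to 83.2 in EPSCs and 237 to 318 in hybrid cells. Postn is among the 8, and the paper counts it as an EPSC-specific gene. It also reports collagen fibril organization as a raised term in EPSCs and hybrid cells over ESCs. Which cells made these transcripts was not tested. NSC libraries summed to 415240 and 415412 FPKM and the other 6 libraries to 600674 to 653796, so comparisons with NSCs depend on scaling more than the others do.

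Between hybrid cells and EPSCs, 9 of the 10 genes were lower in hybrid cells, none was higher, and Ddit3 alone did not pass the test. The largest ratios were those of Chac1, Nupr1 and Atf5, each 3.75 to 4.76 times lower in hybrid cells, and the smallest among the called genes was that of Sesn3, 1.29 times lower. The test was limma on log2(FPKM + 1) with all 8 libraries in one fit, and genes were called at a Benjamini-Hochberg adjusted p under 0.05 over 13239 genes. By this test 21.9% of all tested genes were lower in hybrid cells and 22.5% were higher. The median log2 fold change of the 10 genes was -1.38, against 0.00 for all tested genes. By a fold rule after the study's methods, read here as a mean over 3 FPKM in whichever group was higher and a ratio of the 2 means over 3, Atf5, Ddit4, Trib3, Chac1 and Nupr1 passed, 5 of the 10, where 2.18% of 9673 genes did so. All 8 fibroblast markers were higher in hybrid cells than in EPSCs, with a median log2 fold change of 1.68. The part of the feeder cells in the lower levels was not tested, and in RNA of whole cultures fewer cells of a type and less RNA per cell cannot be told apart.

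**Figure D1:**
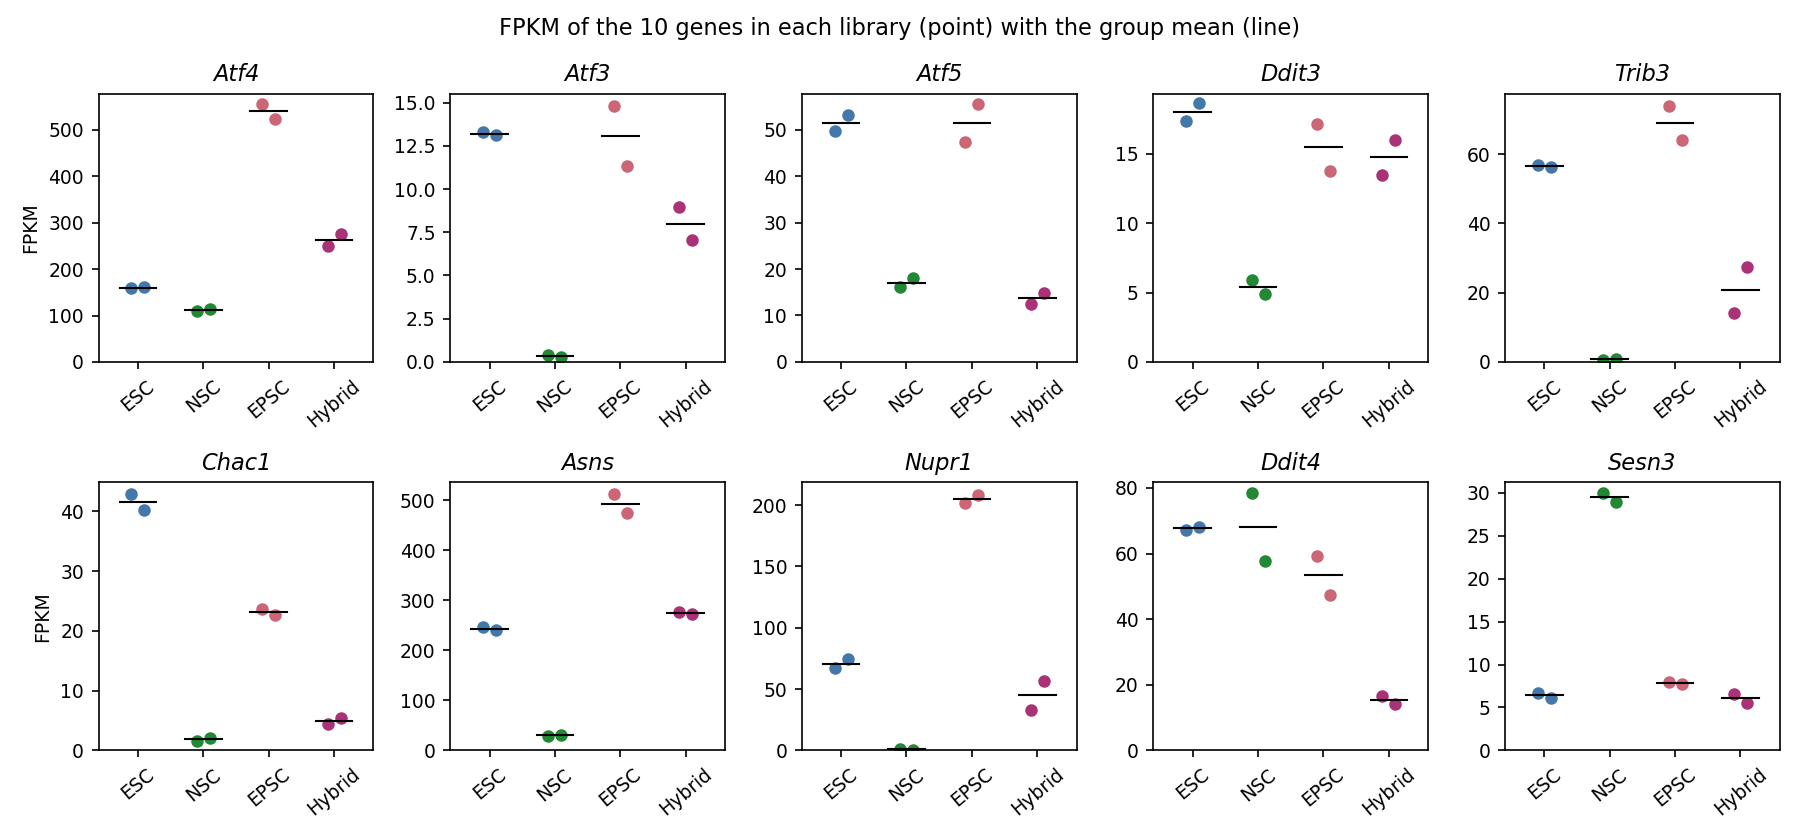
FPKM (linear axis) of each of the 10 genes in the 8 libraries, with 1 point per library and a bar at the mean of each group. Both hybrid libraries lie below both EPSC libraries in 9 of the panels, and NSCs lie lowest in 7. The shares of all tested genes with these orders are not given here, so neither count can be set against a background.

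Atf4 (chr15:80255184-80257545, GRCm38 as for the other positions) encodes the factor itself. Its level was 556 and 524 FPKM in the EPSC libraries, 250 and 276 in hybrid cells, 159 and 162 in ESCs and 109 and 115 in NSCs. No libraries of different groups overlapped, and both EPSC libraries stood far above the rest. Hybrid cells held 48.7% of the EPSC level, a log2 fold change of -1.04 ± 0.064 (SE, limma adjusted p = 9.9e-05). Against ESCs, Atf4 was 3.37-fold higher in EPSCs (log2 fold change 1.75 ± 0.064, limma adjusted p = 2.5e-06) and 1.64-fold higher in hybrid cells (limma adjusted p = 6.9e-05). The order was therefore EPSCs, hybrid cells, ESCs and NSCs, with every neighbouring pair called. The last step, 1.43-fold between ESCs and NSCs (limma adjusted p = 0.00013), turned to a log2 fold change of -0.038 (limma adjusted p = 0.584) once FPKM were scaled to a common sum.

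Atf3, Atf5 and Ddit3 encode bZIP proteins that act with or after ATF4, Ddit3 giving rise to the stress factor CHOP. Atf3 (chr1:191170296-191183333) was at 13.3 and 13.1 FPKM in ESCs, 14.8 and 11.4 in EPSCs, 8.96 and 7.05 in hybrid cells and 0.375 and 0.313 in NSCs. ESC and EPSC libraries overlapped (limma adjusted p = 0.895), hybrid libraries lay below both, and NSC libraries were far below the other 6. The hybrid level was 1.63-fold below EPSCs (log2 fold change -0.64 ± 0.14, limma adjusted p = 0.00984) and 23.3-fold above NSCs (limma adjusted p = 7.7e-07).

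Atf5 (chr7:44812256-44816658) stood at 49.7 and 53.2 FPKM in ESCs, 47.3 and 55.6 in EPSCs, 16.1 and 18.1 in NSCs and 12.5 and 14.9 in hybrid cells. Here the hybrid libraries were the lowest of the 8. Means of ESCs and EPSCs were both 51.5 FPKM (limma adjusted p = 0.982), and hybrid cells were 3.75-fold below EPSCs (log2 fold change -1.83 ± 0.11, limma adjusted p = 9.9e-05). A smaller step separated hybrid cells from NSCs, 1.24-fold (limma adjusted p = 0.0339), and this call was lost without ESC replicate 1 or 2, NSC replicate 2 or hybrid replicate 1, with no filter on low values (adjusted p = 0.0574) and after quantile normalization (log2 fold change -0.21, limma adjusted p = 0.132), with adjusted p-values up to 0.189. In the annotation, Atf5 overlaps Nup62 by 571 bases and Il4i1 by 272 bases on the opposite strand, and whether counting used strand is not given in the sources used here. Nup62 had means of 152 FPKM in EPSCs and 111 in hybrid cells, and Il4i1 stayed under 0.18 FPKM in every group.

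Ddit3 (chr10:127290793-127296291) was the exception among the 10. Its values were 17.2 and 13.8 FPKM in EPSCs, 13.5 and 16.0 in hybrid cells, 17.4 and 18.6 in ESCs and 5.92 and 4.92 in NSCs. EPSC and hybrid libraries interleaved, and the log2 fold change was -0.063 ± 0.13 (limma adjusted p = 0.73), with signs that changed when EPSC replicate 1 (0.086) or hybrid replicate 1 (0.054) was left out. None of the 3 pairs among ESCs, EPSCs and hybrid cells passed the test, whereas all 3 groups were 2.72 to 3.32 times higher than NSCs. With FPKM scaled to a common sum, Ddit3 was called lower in hybrid cells than in ESCs (log2 fold change -0.35, limma adjusted p = 0.0497). GENCODE M21 lists 2 overlapping genes under this symbol on the same strand, and the symbol has a single row in the table. The Ddit3 span also overlaps Mars, a methionyl-tRNA synthetase gene on the opposite strand, by 68 bases.

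Trib3 (chr2:152337425-152344060) encodes a pseudokinase that ATF4 and CHOP induce and that acts back on ATF4. EPSC libraries held 73.8 and 64.0 FPKM, ESC libraries 56.9 and 56.3, hybrid libraries 14.2 and 27.4 and NSC libraries 0.624 and 0.827. The hybrid libraries differed 1.94-fold from each other, the widest gap of the 10 genes in this group, yet both lay below every ESC and EPSC library. Hybrid cells were 3.31-fold below EPSCs (log2 fold change -1.75 ± 0.25, limma adjusted p = 0.00187), and the value moved from -2.20 to -1.29 over the alternatives. Without hybrid replicate 1, Trib3 no longer met the fold rule, which left 4 of the 10 genes. The difference between EPSCs and ESCs was not called (log2 fold change 0.28, limma adjusted p = 0.378), but it was called without hybrid replicate 1 (adjusted p = 0.0338), without hybrid replicate 2 (adjusted p = 0.0334) and in a limma fit of these 2 groups alone (adjusted p = 0.0271).

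Asns, Chac1 and Nupr1 are well-known targets of ATF4. The product of Asns (chr6:7675165-7693209) makes asparagine from aspartate and glutamine, and its level was 513 and 474 FPKM in EPSCs, 278 and 274 in hybrid cells, 246 and 241 in ESCs and 29.5 and 30.9 in NSCs. The groups did not overlap and the hybrid libraries agreed within 1.02-fold. Asns was 1.79-fold lower in hybrid cells than in EPSCs (log2 fold change -0.84 ± 0.055, limma adjusted p = 0.000119) and 2.03-fold higher in EPSCs than in ESCs (limma adjusted p = 1.2e-05). Hybrid cells and ESCs were close, 1.13-fold apart (limma adjusted p = 0.0229). That call was lost without ESC replicate 1 (adjusted p = 0.075), ESC replicate 2 (0.119) or hybrid replicate 1 (0.0732) and with FPKM scaled to a common sum (0.06), and the log2 fold change was -0.065 after quantile normalization.

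Chac1 (chr2:119351242-119354326) encodes an enzyme that breaks down glutathione. ESCs held most of it, at 42.9 and 40.2 FPKM, followed by EPSCs at 23.7 and 22.7, hybrid cells at 4.37 and 5.38 and NSCs at 1.56 and 2.11. Every pair of groups was separate and called, and no other member had an ESC level that passed the test against all 3 other groups from above. The hybrid level was 4.76-fold below EPSCs (log2 fold change -2.05 ± 0.12, limma adjusted p = 9.9e-05) and 8.52-fold below ESCs (limma adjusted p = 3.2e-06). Between EPSCs and ESCs it fell while Atf4 rose, with EPSCs 1.79-fold lower (log2 fold change -0.81 ± 0.12, limma adjusted p = 0.000871).

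Nupr1 (chr7:126623246-126625470) encodes a small nuclear protein that is induced by stress. EPSC libraries held 202 and 208 FPKM, ESC libraries 67.1 and 74.4, hybrid libraries 33.0 and 56.7 and NSC libraries 1.55 and 0.588. Its hybrid libraries were 1.72-fold apart, both under the ESC values. Nupr1 was 4.58-fold lower in hybrid cells than in EPSCs (log2 fold change -2.22 ± 0.28, limma adjusted p = 0.00106). EPSCs were 2.9-fold above ESCs (log2 fold change 1.53, limma adjusted p = 0.00236), and the difference between hybrid cells and ESCs was not called (log2 fold change -0.69, limma adjusted p = 0.0581), although it was without hybrid replicate 2 (adjusted p = 0.00884), NSC replicate 1 (0.0498) or NSC replicate 2 (0.049) and after quantile normalization (0.0366).

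Ddit4 and Sesn3 encode inhibitors of the growth kinase mTORC1, and Ddit4 also responds to hypoxia and glucocorticoids. Ddit4 (chr10:59949675-59951770) was at 67.3 and 68.2 FPKM in ESCs, 78.6 and 57.8 in NSCs, 59.3 and 47.5 in EPSCs and 16.6 and 14.1 in hybrid cells. The hybrid libraries stood alone at the bottom, while the other 3 groups were not separated from each other by the test. Hybrid cells were 3.48-fold below EPSCs (log2 fold change -1.73 ± 0.16, limma adjusted p = 0.000367), 4.42-fold below ESCs (limma adjusted p = 3.4e-05) and 4.45-fold below NSCs (limma adjusted p = 7.1e-06). With the replicate number as a block, Ddit4 was also called lower in EPSCs than in ESCs (limma adjusted p = 0.0232) and than in NSCs (limma adjusted p = 0.0168). The first of these was called too with FPKM scaled to a common sum (log2 fold change -0.41, limma adjusted p = 0.047) and in a fit of these 2 groups alone (limma adjusted p = 0.0349). The second of these was called too without NSC replicate 2 (adjusted p = 0.0165) or EPSC replicate 1 (adjusted p = 0.0376). Its log2 fold change of -0.34 grew to -0.95 with FPKM scaled to a common sum (limma adjusted p = 0.000466) and to -0.67 after quantile normalization (limma adjusted p = 0.00885).

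Sesn3 (chr9:14276301-14326134) was highest in NSCs. NSC libraries held 30.0 and 28.9 FPKM, and the others 7.94 and 7.68 in EPSCs, 6.71 and 6.16 in ESCs and 6.56 and 5.56 in hybrid cells. NSCs thus stood 3.77 to 4.86 times above each pluripotent group. The difference between hybrid cells and EPSCs was small (1.29-fold, log2 fold change -0.32 ± 0.088, limma adjusted p = 0.0222). It was not called without NSC replicate 1 or 2, EPSC replicate 1 or 2, or hybrid replicate 2 (adjusted p from 0.0509 to 0.0783), nor in a limma fit of these 2 groups alone (adjusted p = 0.0921). Likewise the 1.21-fold higher level in EPSCs than in ESCs (limma adjusted p = 0.0439) was lost when any library of these groups or of the NSCs was left out, with no filter on low values, with scaling to a common sum and after quantile normalization, with adjusted p-values from 0.0578 to 0.218.

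**Figure D2:**
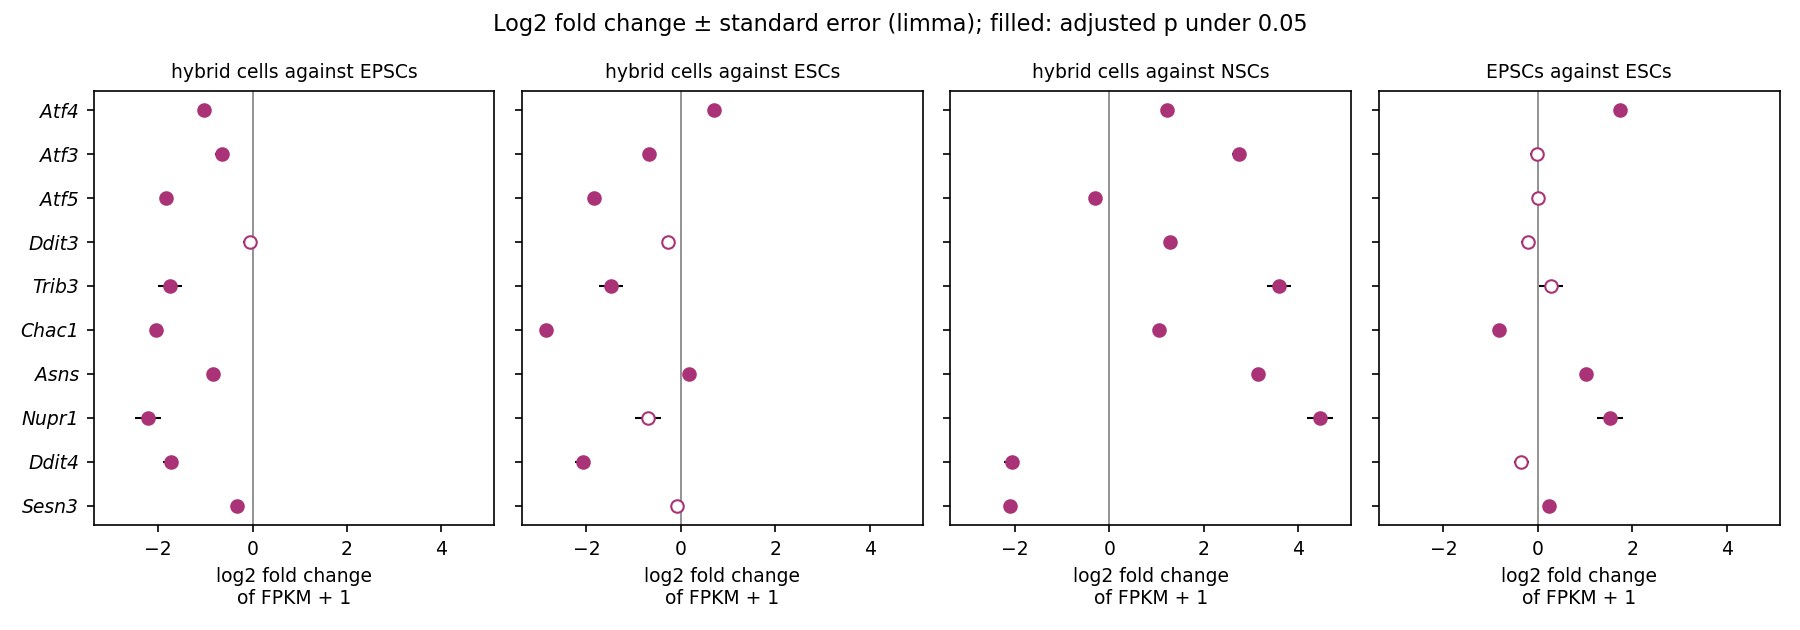
Log2 fold change of FPKM + 1 for the 10 genes in the comparisons named above the panels. Points are limma estimates, bars are standard errors, and filled points have an adjusted p under 0.05. Between hybrid cells and EPSCs 9 filled points lie left of 0 and Ddit3 lies at -0.063.

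EPSCs and ESCs did not differ in a single direction over the 10 genes. Atf4, Asns, Nupr1 and Sesn3 were higher in EPSCs, Chac1 was lower, and Atf3, Atf5, Ddit3, Ddit4 and Trib3 did not pass the test. Beside these 4 and 1 genes, limma called 33.7% of all tested genes higher and 27.3% lower. The median log2 fold change of the 10 was 0.12, against 0.043 for all genes. Only Atf4 met the fold rule, which 6.34% of the 9856 genes over 3 FPKM in either group did, and without ESC replicate 2 Nupr1 met it too. Sums of fibroblast markers were also higher in EPSCs than in ESCs, and their part was not tested.

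The comparison of hybrid cells with ESCs shares its libraries with the comparisons above. Atf4 and Asns were higher in hybrid cells, 2 of the 10, where 35.3% of all genes were. Lower in hybrid cells were Atf3, Atf5, Ddit4, Trib3 and Chac1, 5 of the 10, where 30.2% of all genes were. All 8 fibroblast markers were higher in hybrid cells here too, with sums of 237 to 318 against 11 to 12.2 FPKM, and their part was not tested. Atf3 was 1.65-fold lower (limma adjusted p = 0.0045), Trib3 2.72-fold lower (limma adjusted p = 0.00161) and Atf5 3.75-fold lower (limma adjusted p = 1.2e-05). Ddit3, Nupr1 and Sesn3 were not called. Atf5, Ddit4 and Chac1 met the fold rule, 3 of the 10, beside 8.83% of the 10011 genes with a mean over 3 FPKM in either group. Hybrid cells thus had more Atf4 transcript than ESCs and less of 5 of the 9 other members.

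NSCs held the lowest mean of 7 members, and the exceptions were Atf5, Ddit4 and Sesn3. Nupr1 was 192-fold, Trib3 95.0-fold and Atf3 38.0-fold higher in EPSCs than in NSCs, and Asns 16.3-fold. The NSC libraries of Nupr1 were 2.63-fold apart, and without NSC replicate 1 its ratio rose from 192 to 349. EPSCs were higher than NSCs in 8 of the 10, lower in Sesn3, and not called in Ddit4, where limma called 45.2% of all genes higher and 41.0% lower. ESCs against NSCs gave the same counts, 8 higher, Sesn3 lower and Ddit4 not called, beside 42.8% and 41.9% of all genes. Hybrid cells were higher than NSCs in 7 and lower in Atf5, Ddit4 and Sesn3, beside 44.5% and 42.0%. By the fold rule 8 of the 10 passed in EPSCs against NSCs (34.4% of 11057 genes). In ESCs against NSCs 8 passed (33.0% of 11057 genes), and in hybrid cells against NSCs 6 (34.6% of 11108). The genes counted for this rule are those with a mean over 3 FPKM in either group. All these shares are large, so that a high count among the 10 says little here. After scaling FPKM to a common sum, the median over all genes moved on the log2 scale from 0.058 to -0.50 for hybrid cells, from 0.077 to -0.48 for EPSCs and from 0.031 to -0.46 for ESCs. The share of higher genes among the called ones moved with it, from 51.5% to 34.5%, from 52.4% to 35% and from 50.5% to 34.2%. Among the 10 genes the directions against NSCs held under this scaling apart from Atf4 and Ddit4 in ESCs. The median of the 10 less that of all genes was at least 1.23 in each of the 3 comparisons after scaling. The log2 fold change of Atf5 between hybrid cells and NSCs grew to -0.91 under this scaling, against -0.21 after quantile normalization, and that of Atf4 shrank to 0.60.

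Hybrid cells descend from EPSCs and NSCs, so each gene was also placed between its parents on the log2(FPKM + 1) scale, with NSCs at 0 and EPSCs at 1. Ddit3 at 0.95, Atf3 at 0.81 and Asns at 0.79 stayed near the EPSC end. Trib3 at 0.67, Nupr1 at 0.67 and Atf4 at 0.54 lay between. Chac1 at 0.34 lay nearer to NSCs. Atf5 fell outside the range at -0.20 and Sesn3 at 1.18, both with less transcript than either parent, and for Ddit4 the parents were too close for the scale to carry a meaning. The steps beyond the nearer parent, NSCs for Atf5 and EPSCs for Sesn3, were small and lost their calls under several alternatives. Against the plain mean of the parents in FPKM, hybrid cells held 0.25 times as much Ddit4, 0.33 times as much Sesn3, 0.39 times as much Chac1 and 0.40 times as much Atf5. At the other end stood Ddit3 at 1.41 times, Atf3 at 1.19 times and Asns at 1.05 times the mean. No test was made of these positions, since the tests of hybrid cells against each parent are given above.

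The 2 hybrid libraries differed by more than 1.5-fold in Trib3 and Nupr1, and both genes were higher in the second library. For the other 8 members the gap was 1.02-fold to 1.27-fold. Of these, Atf3, Ddit4, Asns and Sesn3 were higher in the first library, and Atf4, Atf5, Ddit3 and Chac1 in the second. The summed fibroblast markers were higher in the first hybrid library, at 318 against 237 FPKM.

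Genes with the profile nearest to that of 3 members were sought by the root mean square distance of centred log2(FPKM + 1) over the 8 libraries, among 9095 genes with a range of at least 1. For Atf4 these were Sycp1 (distance 0.11), Dnajb13 (0.15) and Gstm6 (0.17), all low, with EPSC means of 3.04 ± 0.30, 4.29 ± 0.78 and 4.36 ± 0.23 FPKM (SD, n = 2). In the same order, their ESC means were 0.31, 0.53 and 0.74 FPKM and their NSC means 0, 0.074 and 0.48. At such levels the added 1 narrows the differences, so a small distance does not mean that the FPKM ratios between groups equal those of Atf4. For Ddit3 they were Garnl3 (0.062), Rpl13a (0.11) and Rpl5 (0.11), of which the last pair encode ribosomal proteins. For Trib3 they were Apoc1 (0.38), Lsr (0.38) and Cldn6 (0.43), at larger distances. Likeness over 8 libraries of 4 groups describes the group means and little else.

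The wider response was read from lists of genes around ATF4, beginning with amino acid supply. Of 15 enzymes of amino acid and one-carbon synthesis, 12 were lower in hybrid cells than in EPSCs, 1 was higher and 2 were not called, with a median log2 fold change of -0.94. Cth, which makes cysteine, went from 69.3 and 68.1 FPKM in EPSCs to 12.2 and 9.28 in hybrid cells (log2 fold change -2.58 ± 0.12, limma adjusted p = 4.8e-05). Mthfd2, a mitochondrial folate enzyme, went from 141 and 135 to 30.5 and 44.9 FPKM (log2 fold change -1.87 ± 0.15, limma adjusted p = 0.000236). The one gene that was higher, Got1, had a log2 fold change of 0.27 (limma adjusted p = 0.0217, up to 0.0918 over the alternatives). Among 13 amino acid transporters, 11 were lower, none was higher and 2 were not called, with a median of -0.77. Slc1a5, a glutamine carrier, fell from 102 and 104 FPKM in EPSCs to 30.6 and 36.6 in hybrid cells (log2 fold change -1.59 ± 0.081, limma adjusted p = 7.4e-05), and Slc6a9, a glycine carrier, from 5.62 and 5.15 to 0.704 and 1.12 FPKM (limma adjusted p = 0.000119).

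The cytosolic tRNA synthetases, which load amino acids onto tRNAs, were listed together with the tRNA exportin Xpot. Of the 21, hybrid cells had 12 at a lower and 1 at a higher level and 8 were not called, with a median of -0.33. Nars stood at 308 and 286 FPKM in EPSCs and 134 and 149 in hybrid cells (log2 fold change -1.07, limma adjusted p = 0.000113), and Gars at 343 and 317 against 158 and 166 (log2 fold change -1.02, limma adjusted p = 9.9e-05). Xpot was among the lower ones (log2 fold change -0.86, limma adjusted p = 0.000119). Qars was the higher one (log2 fold change 0.29, limma adjusted p = 0.0179, up to 0.0833 over the alternatives). In 18 tested bZIP partners and other effectors, 9 were lower, 2 higher and 7 not called, with a median of -0.33. Stc2, a secreted glycoprotein, fell to 2.26 and 2.93 FPKM from 15.6 and 12.9 (log2 fold change -2.09, limma adjusted p = 0.000144), and Herpud1, a component of ER-associated degradation, to 9.65 ± 0.49 FPKM from 38.3 ± 3.2 (SD, n = 2, log2 fold change -1.88, limma adjusted p = 3e-05). Jun (log2 fold change 0.75, limma adjusted p = 0.00722) and Nfe2l2, which encodes the redox factor NRF2 (log2 fold change 0.37, limma adjusted p = 0.00292), were higher. Fgf21, the remaining gene of that list, was below the filter.

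Upstream of ATF4, 15 genes of eIF2 kinases, phosphatases, subunits and the exchange factor eIF2B gave no common direction, with 6 higher in hybrid cells, 2 lower and 7 not called, and a median of 0.076. Eif2b5, the catalytic subunit of eIF2B, was at 226 and 201 FPKM in hybrid cells and 111 and 116 in EPSCs (log2 fold change 0.90 ± 0.067, limma adjusted p = 0.000175), and Eif2b2 had a log2 fold change of 0.58 (limma adjusted p = 0.00023). The lower pair was Ppp1r15a, which encodes the phosphatase subunit GADD34 and is itself induced by ATF4 (17.9 and 16.4 against 26.4 and 23.9 FPKM, log2 fold change -0.53, limma adjusted p = 0.00551), and Eif2ak1, the kinase HRI (log2 fold change -0.27, limma adjusted p = 0.0463, up to 0.189 over the alternatives). The chaperone and degradation genes of the ATF6 and XBP1 arms, the other branches of the unfolded protein response in the ER, were split as well, with 7 of 21 higher, 5 lower, 9 not called and a median of 0.039. Sdf2l1 (log2 fold change 0.74) and Xbp1 (log2 fold change 0.49) were higher, and Atf6 (log2 fold change -0.47) and Edem1 (log2 fold change -0.34) lower, each with a limma adjusted p of at most 0.0106, which for Edem1 reached 0.0535 over the alternatives. Of 11 measured genes of mitochondrial stress, 3 were lower, 1 was higher and 7 were not called, with a median of 0.037, and Hspa9, the mitochondrial HSP70, was at 371 and 349 FPKM in hybrid cells against 496 and 467 in EPSCs (log2 fold change -0.42, limma adjusted p = 0.00126). The proteases Spg7 (log2 fold change -0.29, limma adjusted p = 0.0207) and Htra2 (log2 fold change 0.22, limma adjusted p = 0.0408) lost their calls under some alternatives. These counts stand beside 21.9% lower and 22.5% higher over all tested genes.

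**Figure D3:**
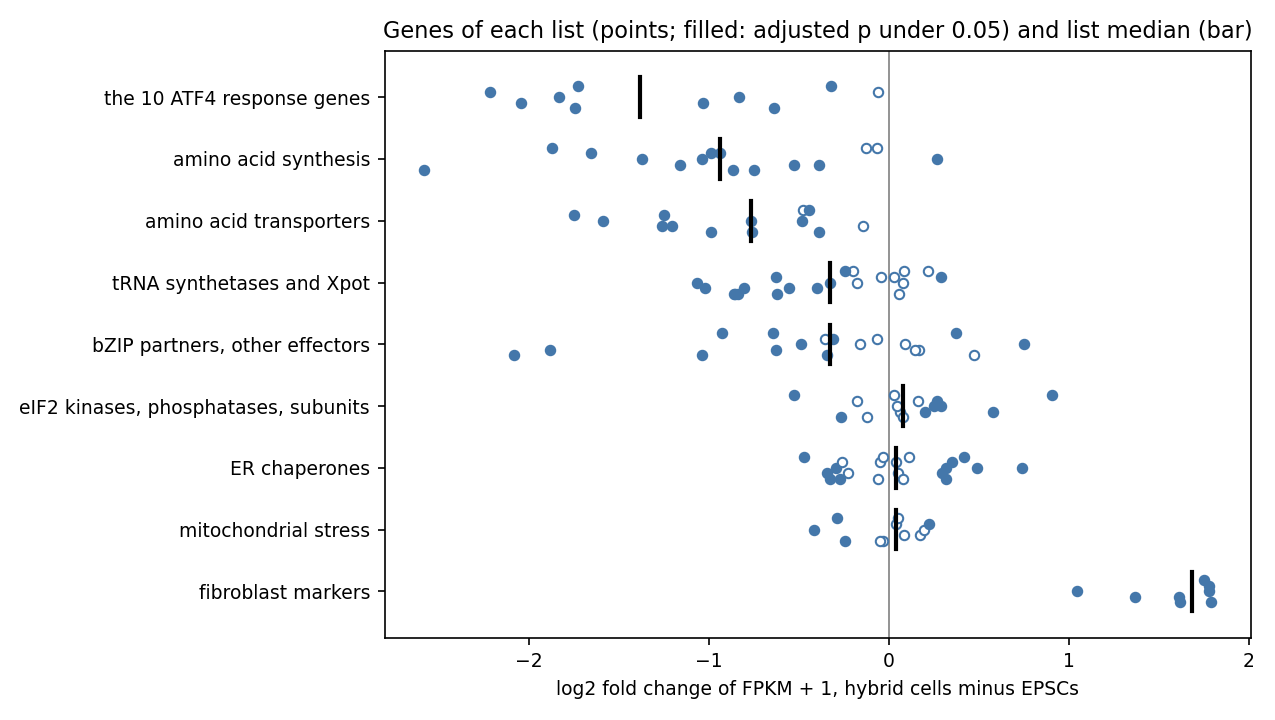
Log2 fold change of FPKM + 1 between hybrid cells and EPSCs (horizontal axis) for every tested gene of each list, with filled points at a limma adjusted p under 0.05 and a bar at the median of the list. Medians lie at -1.38 for the 10 genes, -0.94 for amino acid synthesis and -0.77 for transporters, near 0 for the eIF2, ER chaperone and mitochondrial lists, and at 1.68 for fibroblast markers.

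The same lists were compared between EPSCs and ESCs. Their counts stand beside 33.7% higher and 27.3% lower over all tested genes. The list of tRNA synthetases and Xpot was higher in EPSCs for 15 of 21 genes, lower for 1 and not called for 5, with a median log2 fold change of 0.39. Eprs (142 and 125 FPKM against 86.9 and 89.0) and Iars (143 and 126 against 89.7 and 91.9) had the largest log2 fold changes of the higher ones, and Farsa was lower (log2 fold change -0.44, limma adjusted p = 0.00104). Transporters were higher for 7 of 13 and lower for 2 (median 0.27), with Slc1a5 at 102 and 104 FPKM against 49.5 and 48.0 (log2 fold change 1.06, limma adjusted p = 4.8e-05). Slc43a1 was also higher (log2 fold change 1.42), and Slc38a7 (log2 fold change -1.11) and Slc6a9 (log2 fold change -0.77) were the lower ones. Synthesis enzymes were split, with 5 of 15 higher and 8 lower and a median of -0.28. Psat1, of the serine pathway, was 450 and 358 FPKM in EPSCs and 186 and 181 in ESCs (log2 fold change 1.13, limma adjusted p = 8.7e-05), and Cth was lower, at 69.3 and 68.1 against 151 and 156 (log2 fold change -1.15, limma adjusted p = 0.000156). The proline enzyme Aldh18a1 had a log2 fold change of 1.10 and the folate enzyme Aldh1l2 one of -0.97. Of the 18 effectors 5 were higher and 9 lower. Cebpb, which encodes a partner of ATF4 on DNA, stood at 5.53 and 3.95 FPKM in EPSCs and 22.0 and 21.7 in ESCs (log2 fold change -2.01, limma adjusted p = 7.9e-05), and Ndrg1 also lay lower in EPSCs (log2 fold change -2.10, limma adjusted p = 0.00023). On the other side were Pmaip1, which encodes the death factor NOXA, at 50.2 and 28.6 against 12.7 and 12.7 FPKM, and Fos (log2 fold change 1.35).

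Among the eIF2 genes, EPSCs had 9 of 15 above the ESC level and 3 below it (median 0.34), with Eif2b4 (log2 fold change 0.90) and Eif2s3x (log2 fold change 0.88) at the upper end. The lower ones included Ppp1r15a, at 26.4 and 23.9 FPKM against 67.2 and 66.3 (log2 fold change -1.38, limma adjusted p = 4.1e-05), and Eif2ak2, the kinase PKR, at 9.50 and 9.41 against 21.3 and 20.6 (log2 fold change -1.07, limma adjusted p = 1.4e-05). Of 21 ER genes, 7 were higher and 7 lower, close to the 33.7% and 27.3% of all genes, and Xbp1 was at 12.3 ± 0.41 FPKM in EPSCs against 28.9 ± 1.5 in ESCs (SD, n = 2), a log2 fold change of -1.17 (limma adjusted p = 1.1e-05). At the ends of that list stood Derl3, at 0.908 ± 0.14 against 7.26 ± 0.47 FPKM, and Pdia6 and Hyou1, with log2 fold changes of 0.60 and 0.55. Mitochondrial stress genes were higher for 7 of 11 and lower for 2 (median 0.29), among them the chaperonin pair Hspd1 (log2 fold change 0.73, limma adjusted p = 0.000435) and Hspe1 (log2 fold change 0.53, limma adjusted p = 0.000271). The lower ones were the proteases Spg7 (log2 fold change -0.81) and Lonp1 (log2 fold change -0.22, limma adjusted p = 0.0236, up to 0.114 over the alternatives).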

How the data were processed

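Expression of the 10 genes was analysed in 8 bulk RNA libraries of cultured mouse cells. The authors made stranded poly-A libraries, sequenced them in pairs on a NovaSeq, aligned reads to mm10 with STAR 2.7.9a and deposited FPKM per gene and library from Cuffnorm 2.2.1 of Cufflinks 2.2.1. The gene annotation, the strand setting and the library normalization of Cuffnorm are not given in the sources used here. Replicates were not pooled, and 0 columns belonged to other samples.

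The label of each column gave its group. Levels are means ± SD or single libraries. Groups were compared with limma 3.58.1 in R 4.3.3 (lmFit, contrasts and eBayes with trend, two-sided) on log2(FPKM + 1), so that changes of low genes are understated, for the 13239 genes with a mean of at least 1 FPKM in at least 1 group. The fit had 4 residual and 3.25 prior degrees of freedom, and p-values were adjusted by Benjamini-Hochberg over all these genes. A two-sided exact permutation test of 2 against 2 libraries cannot go below 0.333 and was not used. The fold rule has no p-value. The methods ask for an average level and a fold change over 3 without saying over which samples the average runs, and the mean of the higher group was used here. Since thresholds of 2 also appear in the study, they were run as an alternative.

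Depth was derived in Python 3.11.15 from FPKM steps of 2250 genes with 1 GENCODE M21 transcript over 1500 bases, assuming fragments of 200 bases. It covers counting error only. Promoter windows and gene positions came from RefSeq GRCm38.p6. The limma fit and the depth estimate were tested on simulated data.

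The text names all 10 genes, up to 2 called genes in each direction per list with the largest log2 fold change for hybrid cells against EPSCs and for EPSCs against ESCs, and the 3 nearest profiles of Atf4, Ddit3 and Trib3. Marker lists are given by their sums, the markers listed at 0 and, for fibroblasts, their calls, their median and the name of Postn. Xpot, which is no synthetase, was named after its values were seen. The members and lists were chosen with earlier results of these data known, so no list is independent evidence. In all, 16 alternatives were run, covering the added constant, the filter, the scaling, the replicate block, the groups in the fit and each library left out.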

Additional observations from a re-analysis of the deposited data

How the results depend on the processing

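Over 60 combinations of gene and comparison and 16 alternatives, 907 of 960 limma values kept their direction and side of the threshold. With the same sign, 25 lost a call and 16 gained one. The other 12 changed sign, and of these 2 also lost a call (Atf4 in ESCs against NSCs after scaling and Asns in hybrid cells against ESCs after quantile normalization) and 1 gained one (Ddit4 in ESCs against NSCs after scaling). No call of a gene changed to a call in the opposite direction. The counts of called members were 8 to 9 for hybrid cells against EPSCs, 9 to 10 against NSCs for hybrid cells and for EPSCs, 4 to 7 for EPSCs against ESCs, 6 to 8 for hybrid cells against ESCs, and 9 for ESCs against NSCs. By the fold rule, EPSCs against ESCs gave 3 members with both thresholds at 2, and 1 to 2 with a library left out. With both thresholds at 2, hybrid cells against NSCs went from 6 to 9 and against EPSCs from 5 to 6 members, and after scaling to a common sum ESCs against NSCs went from 8 to 6.

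With FPKM scaled to a sum of 1000000, ESCs against NSCs gave -0.038 for Atf4 and -0.54 for Ddit4 (log2 fold change, limma adjusted p = 0.00993). After quantile normalization Ddit4 was at -0.25 there, and Asns at -0.065 for hybrid cells against ESCs. Leaving out 1 library moved the log2 fold change from -0.20 to 0.15 for Atf3 and from -0.12 to 0.11 for Atf5 in EPSCs against ESCs, from -0.21 to 0.086 for Ddit3 in hybrid cells against EPSCs, from -0.21 to 0.23 for Ddit4 in ESCs against NSCs, and from -0.18 to 0.026 for Sesn3 in hybrid cells against ESCs. The cause was not tested. Where a group was left with 1 library, it was assumed to vary like the others.

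With the replicate block, 9 members were called for hybrid cells against EPSCs, 10 for hybrid cells and 10 for EPSCs against NSCs, 6 for EPSCs against ESCs, 7 for hybrid cells against ESCs and 9 for ESCs against NSCs. The labels name no pairing. Deviations of same-numbered libraries correlated across genes at 0.28 between hybrid cells and EPSCs and at -0.11 to 0.069 in the other 5 comparisons, and with 2 libraries a group this does not settle whether the numbers pair them. Besides Ddit4, the block changed no call of a member.

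With 2 libraries of 1 line per group, the results describe these lines. Depth does not limit the 10 genes outside NSCs, where the means of Atf3, Trib3, Chac1 and Nupr1 were under 2 FPKM.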
